A study of Mus musculus with 4 samples.

Results

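Genes that drive cells through the cell cycle and copy their DNA were followed in the small-intestinal epithelium of IKKb(EE)IEC mice and of their wild-type (WT) littermates. The set holds 48 genes with 77 probes, taken by symbol from the array annotation, with Cdk1 found under its older symbol Cdc2a. Of these, 39 were measured well enough to be tested among 12437 genes in all. The other 9, Cdk2, E2f1, Cdc6, Rrm2, Ccnf, Cdc25c, Plk4, Bub1b and Kif11, had no probe well above background on any array and have no test.

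A cell enters the cycle in G1, when D-type cyclins with Cdk4 and Cdk6 phosphorylate the retinoblastoma protein and release E2F transcription factors. Origins of replication are licensed by loading the Mcm2 to Mcm7 helicase, the fork then copies the DNA in S phase, and cyclin A and cyclin B kinases, Plk1 and the Aurora kinases carry the cell through G2 and mitosis. In the small intestine these genes are used mainly by stem and transit-amplifying cells of the crypts, while the absorptive cells of the villi have left the cycle.

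IKKb(EE)IEC mice express IKKb(EE), a constitutively active form of the NF-kB-activating kinase IKKb, in intestinal epithelial cells (IEC). The WT littermates served as controls. Total RNA of freshly isolated small-bowel cells, described as enterocytes, was measured on 1-colour oligonucleotide arrays, with 2 biological replicates per genotype and 1 array each. The sources used here do not give the promoter behind the transgene, the age of the mice or the number of mice behind a sample. All 4 arrays lay on 1 slide, IKKb(EE)IEC at positions 3 and 4 and WT at positions 1 and 2, so position and genotype cannot be told apart.

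Processed signals had a 75th percentile of 94.6 and 107.8 in IKKb(EE)IEC, against 60.3 and 66.1 in WT. The 2 IKKb(EE)IEC arrays correlated at 0.994 across the tested genes and the 2 WT arrays at 0.978, against 0.937 to 0.947 between genotypes. WT replicate 2 stood apart from WT replicate 1 in many cell cycle genes, as given below, and some values that rest on either array are also given with arrays left out. Ikbkb, whose probe lies on chromosome 8 (24125327 to 24125386, mm8), had normalised log2 signals of 0.33 and 0.34 in IKKb(EE)IEC and -0.72 and -0.27 in WT, a difference of 0.83 ± 0.21 (SE, adjusted p = 0.0550). Detection of the transgene by that probe cannot be judged from the files. All 15 markers of absorptive enterocytes were well above background on all 4 arrays. Of 10 markers of B and plasma cells, 4 were so on all 4 arrays and 5 on none, among them Cd79a, Ms4a1, Mzb1 and Pax5. All 12 markers of T and NK cells with a probe were well above background on all 4 arrays.

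The promoters of 39 of the 48 genes were matched in RefSeq (GRCm38.p6), as windows of 300 bases that span a gene's start. Motif letters were searched on both strands of each window, and all windows of a gene were counted together. They were TTTCCCGC, TTTCGCGC, TTTGCCGC and TTTGGCGC for E2F, TTTGAA for the cell cycle homology region (CHR), through which the DREAM and B-Myb complexes are known to act, and CCAAT for the CCAAT box bound by NF-Y. Matches to different E2F words can overlap. Ccnd2 and Ccne2, which passed the genotype test, had no matched window. The windows below belong to E2f2 and Plk1, which also passed it, and to Mcm3 and Mcm6, subunits of the helicase, which did not. They are printed 5′ to 3′ on the gene's strand, and capitals mark the motif letters. They lie at chr4:136172024-136172323 (plus strand, E2f2), chr7:122159185-122159484 (plus strand, Plk1), chr1:20820263-20820562 (minus strand, Mcm3) and chr1:128359656-128359955 (minus strand, Mcm6).
E2f2: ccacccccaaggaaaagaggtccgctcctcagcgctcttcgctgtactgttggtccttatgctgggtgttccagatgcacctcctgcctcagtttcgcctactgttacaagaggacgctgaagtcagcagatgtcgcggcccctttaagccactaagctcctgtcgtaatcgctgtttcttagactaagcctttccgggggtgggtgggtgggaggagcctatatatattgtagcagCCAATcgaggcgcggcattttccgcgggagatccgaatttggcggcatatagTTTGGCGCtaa
Plk1: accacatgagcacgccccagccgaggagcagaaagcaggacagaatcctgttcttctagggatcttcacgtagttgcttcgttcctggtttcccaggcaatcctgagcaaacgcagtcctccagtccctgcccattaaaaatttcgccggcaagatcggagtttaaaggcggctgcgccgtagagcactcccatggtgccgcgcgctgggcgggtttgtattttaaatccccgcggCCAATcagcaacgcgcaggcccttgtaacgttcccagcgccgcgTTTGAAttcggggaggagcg
Mcm3: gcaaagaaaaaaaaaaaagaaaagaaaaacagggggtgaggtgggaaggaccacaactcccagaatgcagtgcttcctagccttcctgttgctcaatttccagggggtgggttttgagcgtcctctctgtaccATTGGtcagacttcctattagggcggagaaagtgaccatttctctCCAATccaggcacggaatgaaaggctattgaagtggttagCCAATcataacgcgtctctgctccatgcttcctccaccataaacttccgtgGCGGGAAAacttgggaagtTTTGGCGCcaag
Mcm6: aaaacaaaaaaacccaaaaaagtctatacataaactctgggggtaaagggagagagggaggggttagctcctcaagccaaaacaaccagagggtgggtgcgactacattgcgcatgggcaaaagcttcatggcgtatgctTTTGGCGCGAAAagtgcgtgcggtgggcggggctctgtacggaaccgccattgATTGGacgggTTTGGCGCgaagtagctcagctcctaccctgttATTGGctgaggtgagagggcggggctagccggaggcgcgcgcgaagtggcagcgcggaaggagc

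The E2f2 window holds 1 E2F word near its 3′ end and 1 CCAAT box, and a further E2f2 window at chr4:136180532-136180831 holds TTTGAA. The Plk1 window has a CCAAT box followed by TTTGAA and no E2F word. The Mcm3 window carries 2 E2F words and 3 CCAAT boxes, and the Mcm6 window 3 E2F words, of which 2 overlap, and 2 CCAAT boxes. An E2F word occurred in 2.6% of the 27025 genes with a window and in 10 of the 39 matched cell cycle genes (25.6%). By role it was present in 6 of 7 origin licensing genes (85.7%), in 0 of 7 genes of the replication fork and nucleotide supply and in 0 of 10 genes of chromosomes, spindle checkpoint and cytokinesis. TTTGAA occurred in 20.2% of all genes, in 5 of 7 S, G2 and M cyclins and kinases (71.4%) and in 7 of 10 genes of chromosomes, spindle checkpoint and cytokinesis (70.0%). CCAAT occurred in 41.1% of all genes and in 27 of the 39 matched cell cycle genes (69.2%). These matches describe letters in the windows only.

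Of the 39 tested genes, Ccnd2, E2f2 and Plk1 were higher in IKKb(EE)IEC and Ccne2 was lower there (limma, adjusted p below 0.05 after Benjamini-Hochberg over all 12437 genes), and 35 did not pass. The 3 that rose are 7.69% of the set, beside 8.02% of all genes, and the 1 that fell is 2.56%, beside 7.20% of all genes. Calls in either direction made up 15.2% of all genes. Arrays of the 2 genotypes did not overlap in 16 genes with higher values in IKKb(EE)IEC (41.0%, beside 28.3% of all genes) and in 3 with lower values (7.69%, beside 40.8% of all genes). Together these are 19 of 39, beside 69.1% of all genes, and in the other 20 genes the genotypes overlapped. At an unadjusted p below 0.05, 9 genes were higher and 2 lower, beside 16.5% and 21.6% of all genes. The log2 difference, IKKb(EE)IEC minus WT, was above 0 in 25 genes and below 0 in 14, with a median of 0.13, beside -0.12 over all genes tested.

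Normalised signal is log2 of the processed signal minus its 75th percentile on the same array, so that 0 stands for that percentile. SE is the moderated standard error of the fit. The p-values rest on the spread between these samples, with n = 2 arrays per genotype. In limma the variance of each gene was drawn toward a value estimated from all genes tested, with 3.51 prior degrees of freedom. Only 3 splits of 2 against 2 arrays exist, so the smallest p an exact permutation test allows for a single gene is 0.333. In tissue RNA, fewer cells of a type and less RNA per cell cannot be told apart.

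**Figure D1:**
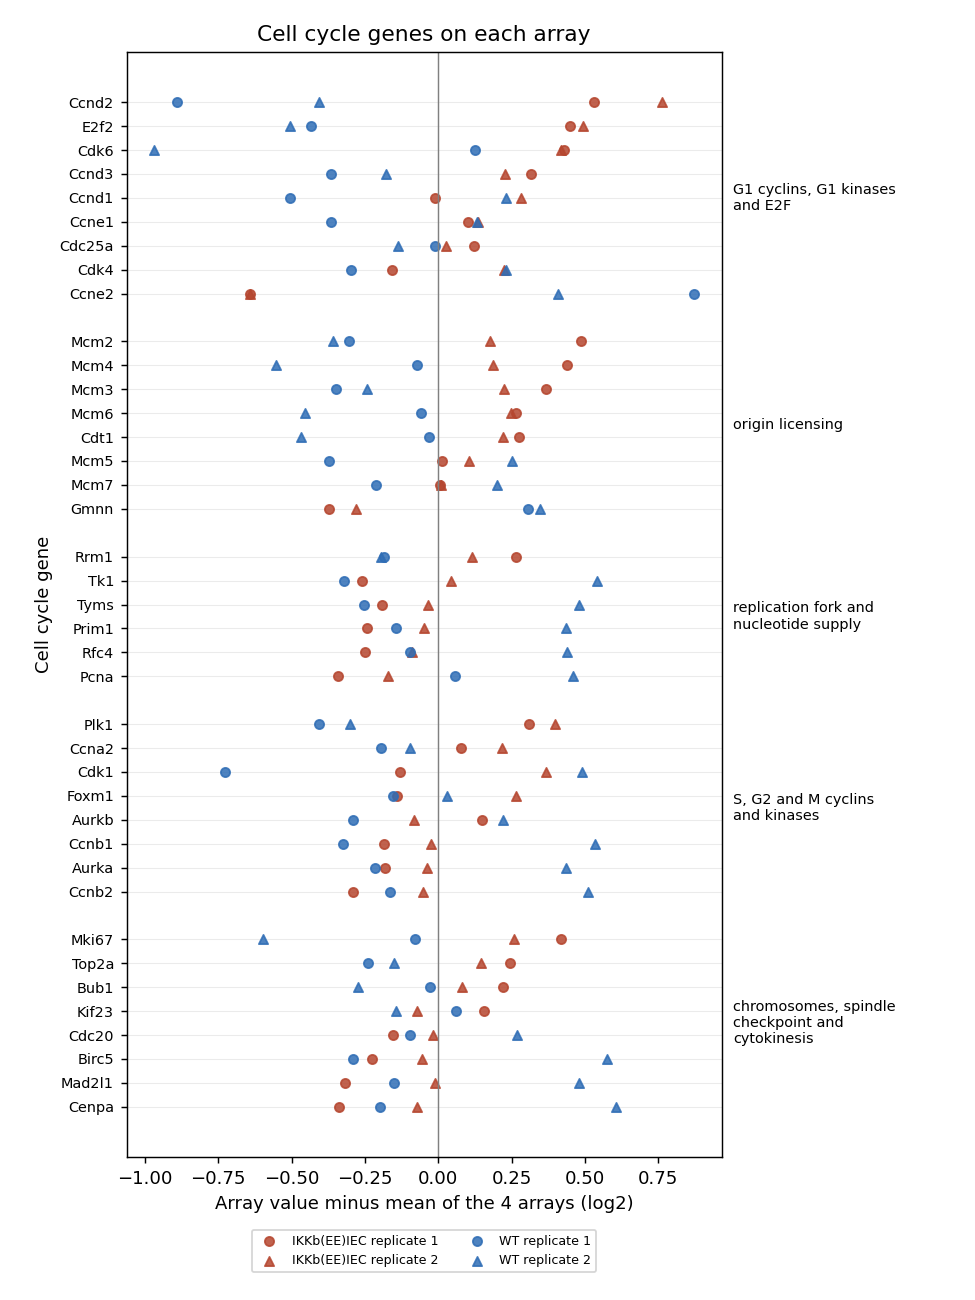
Normalised log2 signal of each of the 39 tested cell cycle genes on each array, minus the mean of the 4 arrays (x axis, log2), in rows grouped by role. Red symbols are IKKb(EE)IEC and blue symbols WT, with circles for replicate 1 and triangles for replicate 2; the red symbols of a gene lie close together, while many blue triangles lie far from the blue circles.

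Of 9 tested G1 cyclins, G1 kinases and E2F factors, 2 rose (22.2%, beside 8.02% of all genes) and 1 fell (11.1%, beside 7.20%). The median log2 difference of the group was 0.27. Ccnd2, which encodes cyclin D2, a partner of Cdk4 and Cdk6, had signals of 2.54 and 2.77 in IKKb(EE)IEC and 1.12 and 1.60 in WT. The IKKb(EE)IEC arrays lay above both WT arrays, and the rise was 1.29 ± 0.23 on the log2 scale (adjusted p = 0.0265), or 2.45-fold. Its probe lies on chromosome 6 (127104788 to 127104847, mm8). The other 2 Ccnd2 probes gave 1.04 (adjusted p over probes 0.0374) and 0.88 (adjusted p over probes 0.0890), in the same direction. Of the 39 genes, Ccnd2 had the most probes past the filter, 3.

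E2f2, an activating E2F transcription factor, had signals of 3.08 and 3.12 in IKKb(EE)IEC and 2.19 and 2.12 in WT. Replicates lay close together in both genotypes and the groups were apart. The rise was 0.94 ± 0.16 on the log2 scale (adjusted p = 0.0255), or 1.92-fold. The probe is on chromosome 4 (135466723 to 135466782, mm8), the chromosome of the E2f2 window printed above.

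Ccne2, which encodes cyclin E2, an activator of Cdk2, moved the other way. Its signals were -1.39 and -1.39 in IKKb(EE)IEC and 0.13 and -0.34 in WT, so the 2 IKKb(EE)IEC arrays lay below both WT arrays. Ccne2 fell by 1.28 on the log2 scale (SE 0.21, adjusted p = 0.0228) at a probe on chromosome 4 (11130171 to 11130230, mm8). That probe was well above background on 1 IKKb(EE)IEC array and on both WT arrays. The second Ccne2 probe did not reach that level on any IKKb(EE)IEC array and reached it on 1 WT array. The fall at this second probe was bounded at 1.51-fold or more, without a test. The size of the Ccne2 difference depended on the processing. It was -0.38 with the authors' value table and -0.33 with normexp background correction. With normexp after outlying local backgrounds were replaced it was -0.62. With a median shift and quantile normalisation it stayed at -1.23 and -1.26.

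The other 6 genes of the group did not pass. Ccnd3, encoding cyclin D3, had -0.81 and -0.90 in IKKb(EE)IEC and -1.49 and -1.30 in WT, where it was dim, that is not well above background, on both arrays. It was at least 1.37-fold higher in IKKb(EE)IEC, and the test of its measured difference of 0.54 gave an adjusted p of 0.0846. Cdk6, a kinase partner of the D cyclins, had 0.26 and 0.25 in IKKb(EE)IEC and -0.04 and -1.13 in WT, and its difference of 0.85 (adjusted p = 0.153) is smaller than the gap between the WT arrays. Ccnd1, Ccne1, Cdk4 and Cdc25a, a phosphatase that activates Cdk2, had differences of 0.27, 0.23, 0.06 and 0.15. A dimmer Cdc25a probe, dim on both WT arrays, passed the filter through IKKb(EE)IEC alone and was at least 1.56-fold higher there. The test of its measured difference of 1.30 gave an adjusted p over probes of 0.0129. The 2 probes of Cdc25a thus disagree on the call.

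**Figure D2:**
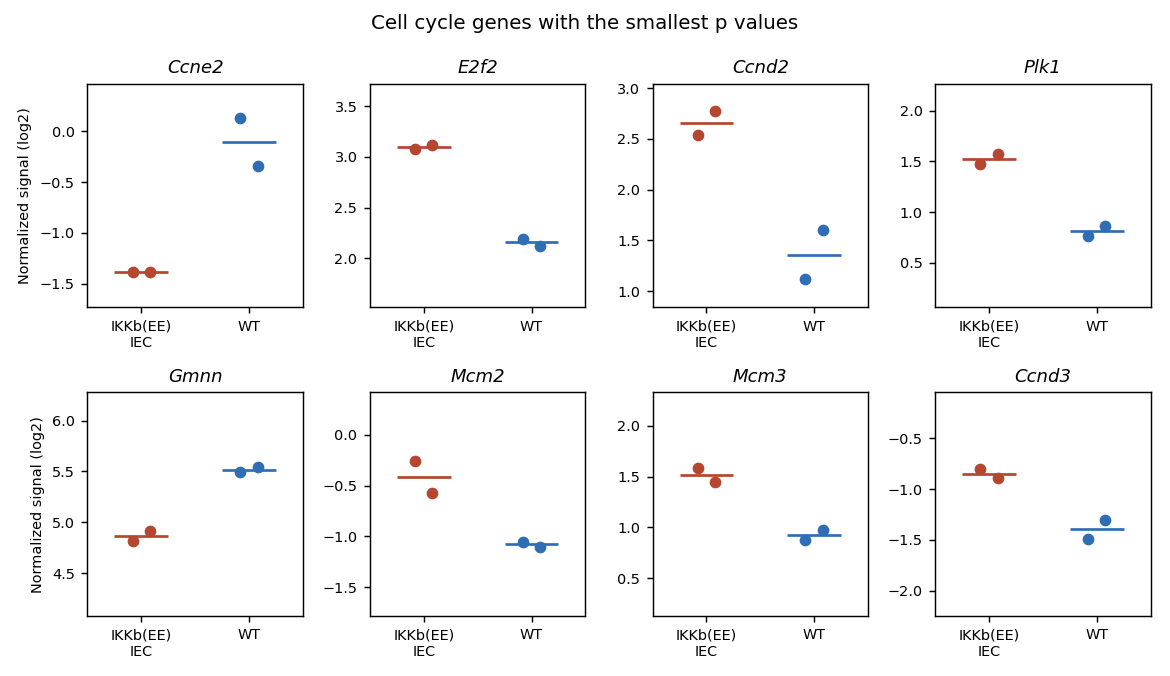
Normalised log2 signal (y axis) of the 8 cell cycle genes with the smallest p values, with IKKb(EE)IEC in red on the left and WT in blue on the right of each panel. Points are arrays, 2 per genotype, bars are means, and each panel has its own y range. In all 8 the genotypes do not overlap, beside 69.1% of all genes, which follows largely from choosing them by p. Ccne2 and Gmnn are the 2 that are lower in IKKb(EE)IEC.

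Origin licensing genes had a median log2 difference of 0.51 over 8 tested genes, and 0 of the 8 passed the adjusted test. At an unadjusted p below 0.05, 4 of the 8 were higher and 1 lower, beside 16.5% and 21.6% of all genes. The IKKb(EE)IEC arrays lay above both WT arrays in 5 of the 8 (62.5%, beside 28.3% of all genes). They lay below in 1 (12.5%, beside 40.8%), and 69.1% of all genes were apart in either direction. Mcm2, a subunit of the replicative helicase, had signals of -0.26 and -0.57 in IKKb(EE)IEC and -1.05 and -1.10 in WT. The genotypes did not overlap, with a difference of 0.66 ± 0.19 (adjusted p = 0.0665) at a probe on chromosome 6 (88849266 to 88849325, mm8) that was dim on 1 WT array.

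Mcm3, another helicase subunit, whose window with 2 E2F words is printed above, had 1.59 and 1.45 in IKKb(EE)IEC and 0.87 and 0.98 in WT. Its genotypes were apart too, by 0.59 ± 0.17 (adjusted p = 0.0685), at a probe on chromosome 1 (20788189 to 20788248, mm8). A dimmer second Mcm3 probe, dim on both WT arrays, had measured values of -0.72 and -1.28 in IKKb(EE)IEC and -0.73 and -1.27 in WT. The 2 Mcm3 probes therefore do not show the same difference. Mcm4, Mcm6, Mcm5 and Mcm7 had differences of 0.63 ± 0.23 (adjusted p = 0.112), 0.52 ± 0.20 (adjusted p = 0.124), 0.12 and 0.01.

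Over Mcm2 to Mcm7, all 6 differences were above 0, with a median of 0.55. In 4 of the 6 (66.7%) the genotypes did not overlap, with IKKb(EE)IEC higher. Of all genes, 28.3% were apart in that direction and 69.1% in either direction. All 6 also stayed above 0 with a median shift, quantile normalisation and the authors' value table, with medians of 0.61, 0.58 and 0.27. With normexp background correction 4 of 6 were above 0, with a median of 0.23. Without WT replicate 1 also 4 of 6 were above 0, with a median of 0.61. The 8 tested cell cycle genes with an E2F word in a promoter window, 5 of them licensing genes, had a median log2 difference of 0.37, and the 23 with a window but no such word -0.17. Within origin licensing the order was the other way. The 5 tested genes with the word had a median of 0.50, and Mcm2, the 1 with a window but no word, had 0.66. Over all tested genes with a window the medians were 0.05 for 359 genes with the word and -0.09 for 8123 without it. These medians are given as a description with no test. Cdt1, the factor that loads the helicase, had 2.71 and 2.65 in IKKb(EE)IEC and 2.40 and 1.97 in WT, a difference of 0.50 that did not pass (adjusted p = 0.143).

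Gmnn encodes geminin, which binds Cdt1 and blocks a further round of licensing. It had 4.82 and 4.91 in IKKb(EE)IEC and 5.50 and 5.54 in WT. The genotypes were apart with close replicates, and the difference was -0.65 ± 0.16 (adjusted p = 0.0530), just outside the threshold, while Plk1, described below, lay just inside it at 0.0472. The probe lies on chromosome 13 (24759448 to 24759507, mm8). Gmnn passed with the authors' value table (adjusted p = 0.0416), with a filter that asked for signal on all 4 arrays (0.0402), with an intensity trend (0.0370) and without either WT array. It did not pass with a median shift (adjusted p = 0.208), quantile normalisation (0.0829), the replicate block (0.0693), no filter (0.0628) or the mean of a gene's probes (0.0514), nor with normexp after outlying local backgrounds were replaced, where the difference was -0.33 (0.100), nor with plain normexp or without either IKKb(EE)IEC array.

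The replication fork and nucleotide supply group had a median log2 difference of -0.26, and 0 of its 6 tested genes passed, at an adjusted or an unadjusted p below 0.05. Pcna, the sliding clamp of the fork, had 3.76 and 3.93 in IKKb(EE)IEC and 4.16 and 4.56 in WT. The IKKb(EE)IEC arrays lay below both WT arrays, with a difference of -0.52 ± 0.21 (adjusted p = 0.133) at a probe on chromosome 2 (131941125 to 131941262, mm8). Rfc4, a subunit of the clamp loader, had 3.49 and 3.65 in IKKb(EE)IEC and 3.65 and 4.18 in WT. One WT array thus lay beside the higher IKKb(EE)IEC array, and the difference of -0.34 ± 0.23 did not pass (adjusted p = 0.319) at a probe on chromosome 16 (23029277 to 23029336, mm8). With 1 array left out at a time, the Rfc4 difference ranged from -0.609 to -0.075.

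Rrm1, the large subunit of ribonucleotide reductase, was the only tested gene of the group with a value above 0. It had 1.91 and 1.76 in IKKb(EE)IEC and 1.46 and 1.45 in WT, with no overlap and a difference of 0.38 ± 0.17 (adjusted p = 0.158) at a probe on chromosome 7 (102342530 to 102342590, mm8). Prim1, the catalytic subunit of primase, Tk1, thymidine kinase, and Tyms, thymidylate synthase, had differences of -0.29, -0.22 and -0.23, with overlapping arrays. The median of the group rested on WT replicate 2. Without that array it was 0.07, and without WT replicate 1 it was -0.60 and 5 of the 6 genes passed as lower.

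**Figure D3:**
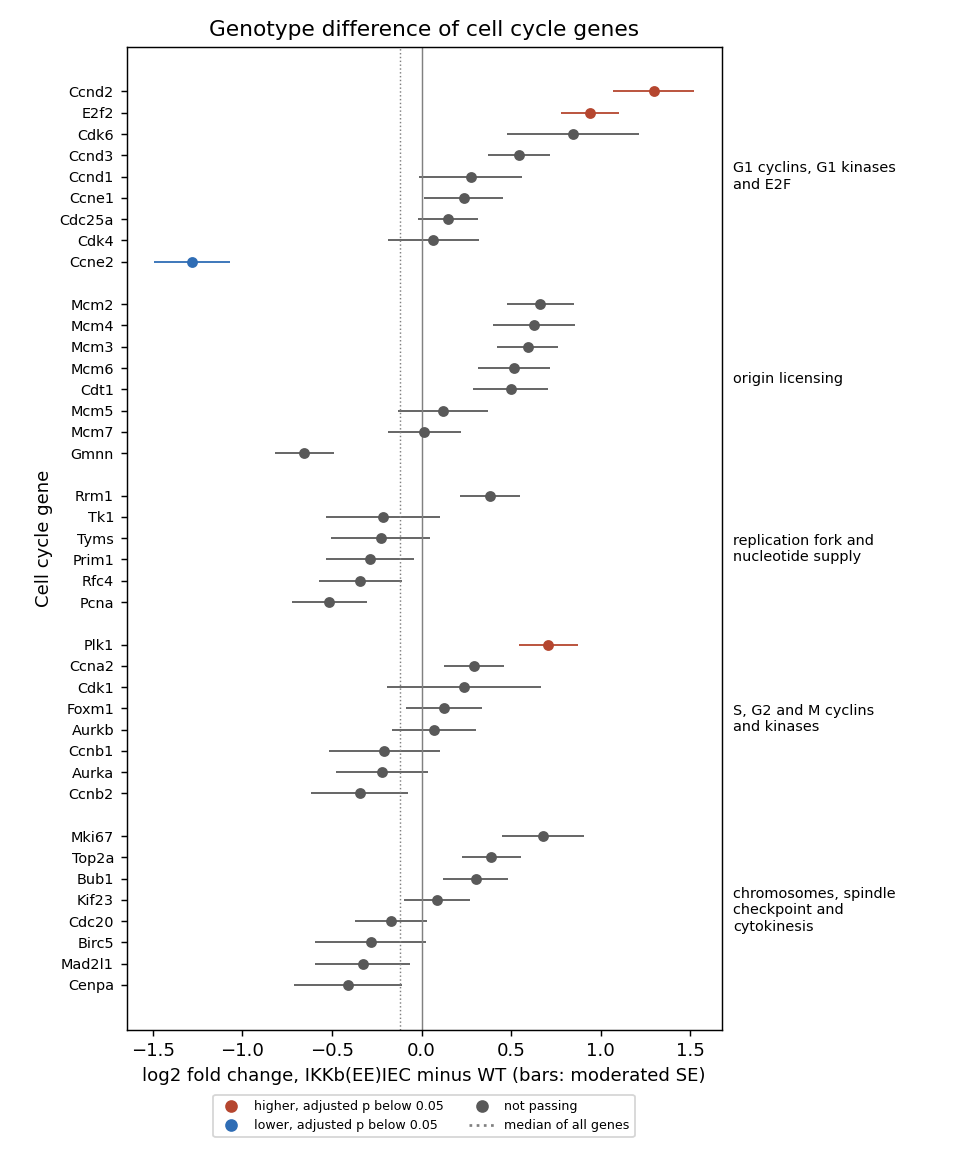
Log2 fold change of each of the 39 tested cell cycle genes, IKKb(EE)IEC minus WT (x axis), with bars for the moderated SE, in rows grouped by role. Ccnd2, E2f2 and Plk1 in red and Ccne2 in blue passed the test, and the dotted line is the median of all genes at -0.12.

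Among the S, G2 and M cyclins and kinases, 1 of 8 tested genes rose (12.5%, beside 8.02% of all genes). The median log2 difference of the group was 0.10. Plk1, a kinase of mitotic entry and spindle assembly, had signals of 1.48 and 1.57 in IKKb(EE)IEC and 0.76 and 0.87 in WT. The genotypes were apart with close replicates, and the rise was 0.71 ± 0.17 on the log2 scale (adjusted p = 0.0472), or 1.63-fold, at a probe on chromosome 7 (121960854 to 121960913, mm8). This call was lost with replicate number as a block (adjusted p = 0.0613), with a median shift (0.0916), with the authors' value table (0.0550) and without a filter (0.0628).

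Ccna2, which encodes cyclin A2, had 2.05 and 2.19 in IKKb(EE)IEC and 1.78 and 1.88 in WT. The groups did not overlap, but the difference was 0.29 ± 0.17 and did not pass (adjusted p = 0.251) at a probe on chromosome 3 (36756605 to 36756664, mm8). Ccnb2, which encodes cyclin B2, had 3.64 and 3.87 in IKKb(EE)IEC and 3.76 and 4.44 in WT. Here the groups overlapped, with a difference of -0.35 ± 0.27 (adjusted p = 0.378) at a probe on chromosome 9 (70207028 to 70207087, mm8). With 1 array left out at a time, the Ccnb2 difference ranged from -0.68 to -0.01. The Ccnb2 window holds 2 copies of TTTGAA, and that of Plk1 holds 1.

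In the other 5 genes of the group the genotypes overlapped and the differences lay between -0.22 and 0.24. Cdk1, the kinase of cyclins A and B, differed most between replicates, with -1.16 and -0.67 in IKKb(EE)IEC and -1.76 and -0.54 in WT. Its WT values enclose both IKKb(EE)IEC values, and the probe was dim on 1 of them. Ccnb1, encoding cyclin B1, had -0.21. The mitotic kinases Aurka and Aurkb had -0.22 and 0.07, and Foxm1, a transcription factor of G2 and M genes, had 0.13.

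Genes of chromosomes, spindle checkpoint and cytokinesis had a median log2 difference of -0.04, and 0 of 8 tested genes passed, with 1 at an unadjusted p below 0.05. Mki67, whose protein Ki-67 marks cycling cells and coats mitotic chromosomes, had signals of 2.29 and 2.14 in IKKb(EE)IEC and 1.80 and 1.28 in WT. The genotypes did not overlap, and the difference of 0.68 ± 0.23 did not pass (adjusted p = 0.0948) at a probe on chromosome 7 (135528251 to 135528310, mm8). With 1 array left out at a time, this difference ranged from 0.42 to 0.94. The second Mki67 probe gave 0.97 (adjusted p over probes 0.116), with 0.49 and -0.57 on the WT arrays.

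Top2a, the topoisomerase that untangles replicated chromosomes, had 0.52 and 0.42 in IKKb(EE)IEC and 0.03 and 0.12 in WT. The groups were apart, by 0.39 ± 0.17 (adjusted p = 0.148), at a probe on chromosome 11 (98812020 to 98812834, mm8). Bub1, a kinase of the spindle checkpoint, had -0.14 and -0.28 in IKKb(EE)IEC and -0.39 and -0.63 in WT. These were also apart, by 0.30 ± 0.18 (adjusted p = 0.268), at a probe on chromosome 2 (127492693 to 127492752, mm8).

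The other 5 genes of this group had overlapping genotypes. The checkpoint protein Mad2l1 had -0.33, Cdc20, an activator of the anaphase-promoting complex, -0.17, Birc5 (survivin), a member of the chromosomal passenger complex, -0.28, and Cenpa, the centromeric histone H3, -0.41. Kif23, a motor of cytokinesis, had measured values of -0.74 and -0.97 in IKKb(EE)IEC and -0.84 and -1.05 in WT. It was dim on both WT arrays, and its measured difference of 0.09 did not pass (adjusted p = 0.752).

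The spread between replicates differed between the genotypes. The 2 IKKb(EE)IEC arrays were over 0.5 log2 apart in 0 of 39 cell cycle genes, beside 692 of all genes tested (5.56%). The 2 WT arrays were over 0.5 apart in 17 of 39 (43.6%), beside 3267 of all genes tested (26.3%). In 15 of the 17 WT replicate 2 was the higher array, and Cdk6 and Mki67 were the 2 exceptions. The median of replicate 2 minus replicate 1 was 0.09 in IKKb(EE)IEC and 0.37 in WT over the 39 genes, against 0.01 and 0.05 over all genes tested.

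By role, the median WT gap was 0.58 in S, G2 and M cyclins and kinases, where replicate 2 was the higher in 8 of 8. It was 0.56 in the replication fork and nucleotide supply group and -0.01 in origin licensing. Cdk1, Birc5, Tk1, Ccnb1 and Cenpa were 1.22, 0.87, 0.86, 0.86 and 0.80 higher on WT replicate 2 than on WT replicate 1. The licensing genes were split, with 4 of 8 higher on WT replicate 2. Mcm5 and Mcm7 had a WT gap of 0.62 and 0.41, while Mcm4, Cdt1 and Mcm6 had -0.48, -0.44 and -0.39. The genes named in these sentences for their replicate gaps were chosen after their values were seen.

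**Figure D4:**
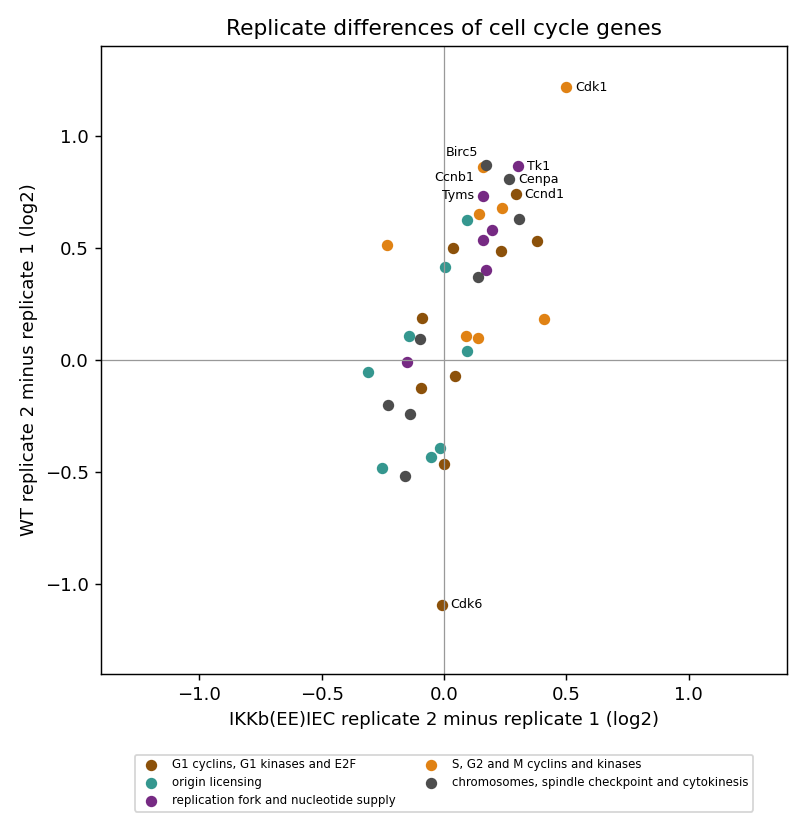
Replicate 2 minus replicate 1 in IKKb(EE)IEC (x axis, log2) and in WT (y axis, log2) for the 39 tested cell cycle genes, 1 point per gene, coloured by role. Points spread further along the WT axis than along the IKKb(EE)IEC axis, and genes over 0.7 apart in WT are named.

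Leaving out 1 array changed the calls. Without WT replicate 1, 10 cell cycle genes were higher and 13 lower, while 49.7% of all genes were called. The 13 were Ccne2 and Gmnn, the fork and nucleotide genes Pcna, Rfc4, Prim1, Tk1 and Tyms, and the mitotic genes Aurka, Birc5, Ccnb1, Ccnb2, Cenpa and Mad2l1. Without WT replicate 2, 8 were higher and 2 lower, with 33.6% of all genes called. The median log2 difference of the 39 genes was -0.10 with WT replicate 1 left out and 0.28 with WT replicate 2 left out.

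With either IKKb(EE)IEC replicate 1 or replicate 2 left out, 0 cell cycle genes passed in limma, at 3 and 4 genes with an unadjusted p below 0.05, and 1.99% and 2.65% of all genes were called. In these fits the IKKb(EE)IEC arm has 1 array and is assumed to vary like the WT pair, which is wider, while in the fits without a WT array the spread comes from the closer IKKb(EE)IEC pair. The differences themselves moved little. With IKKb(EE)IEC replicate 1 or replicate 2 left out, they were 1.41 and 1.18 for Ccnd2, 0.96 and 0.92 for E2f2, 0.75 and 0.66 for Plk1, and -1.28 and -1.28 for Ccne2.

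Genes of the same pathways outside the set gave few calls. Over 6 further lists, 6 of 131 tested genes rose (4.58%, beside 8.02% of all genes) and 4 fell (3.05%, beside 7.20%), with a median log2 difference of 0.00. Among 40 other mitosis genes 1 rose and 0 fell. Mad2l2, a subunit of translesion polymerase zeta that also binds the anaphase-promoting complex activators, had 2.52 and 2.57 in IKKb(EE)IEC and 1.69 and 1.67 in WT, and rose by 0.87 (SE 0.16, adjusted p = 0.0303). Of 18 checkpoint kinases, phosphatases and ubiquitin ligases 0 passed in limma, at 5 with an unadjusted p below 0.05. Pkmyt1, an inhibitory kinase of Cdk1, came nearest with a difference of 0.68 (adjusted p = 0.0806).

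The Rb, E2F and DREAM genes, regulators of the G1 step, held calls near the shares of all genes. Of 15 tested, 1 rose (6.67%, beside 8.02% of all genes) and 1 fell (6.67%, beside 7.20%). E2f3, like E2f2 an activating E2F, had 2.52 and 2.19 in IKKb(EE)IEC and 1.27 and 1.18 in WT, and rose by 1.14 (SE 0.19, adjusted p = 0.0236). Tfdp2, a dimerisation partner of E2F factors, had 1.70 and 1.82 in IKKb(EE)IEC and 2.52 and 2.49 in WT, and fell by 0.74 (SE 0.17, adjusted p = 0.0422). The 2 activating E2F genes that were tested, E2f2 and E2f3, both rose, while E2f1 was not well above background on any array.

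Of 6 CDK inhibitors 1 rose (16.7%, beside 8.02% of all genes) and 1 fell (16.7%, beside 7.20%). Cdkn1a, which encodes p21, an inhibitor of cyclin-dependent kinases, had 4.29 and 4.05 in IKKb(EE)IEC and 2.86 and 2.59 in WT, a rise of 1.45 ± 0.19 (adjusted p = 0.0132). Cdkn1c, which encodes the related p57, had 0.04 and 0.21 in IKKb(EE)IEC and 1.15 and 0.79 in WT, and fell by 0.85 (SE 0.20, adjusted p = 0.0473). These inhibitors, which hold cells in G1, thus changed in opposite directions in the same samples in which Ccnd2 and E2f2 rose.

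Among 17 other cyclins and CDKs 3 rose (17.6%, beside 8.02% of all genes) and 1 fell (5.88%, beside 7.20%). Ccnt2, cyclin T2 of the transcription elongation kinase, was dim on both WT arrays and passed the filter through IKKb(EE)IEC alone. It was at least 1.06-fold higher in IKKb(EE)IEC. The adjusted p of 0.00401 in limma belongs to its measured log2 difference of 2.23, not to this bound. Cdk18 rose by 1.06 (SE 0.21, adjusted p = 0.0345) and Ccnl1, a cyclin of RNA processing, by 0.99 (SE 0.21, adjusted p = 0.0408). Cdk12, a kinase of RNA polymerase II, fell by 0.73 (SE 0.18, adjusted p = 0.0491). Ccnt2, Ccnl1 and Cdk12 are known for roles in transcription rather than in the division cycle.

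**Figure D5:**
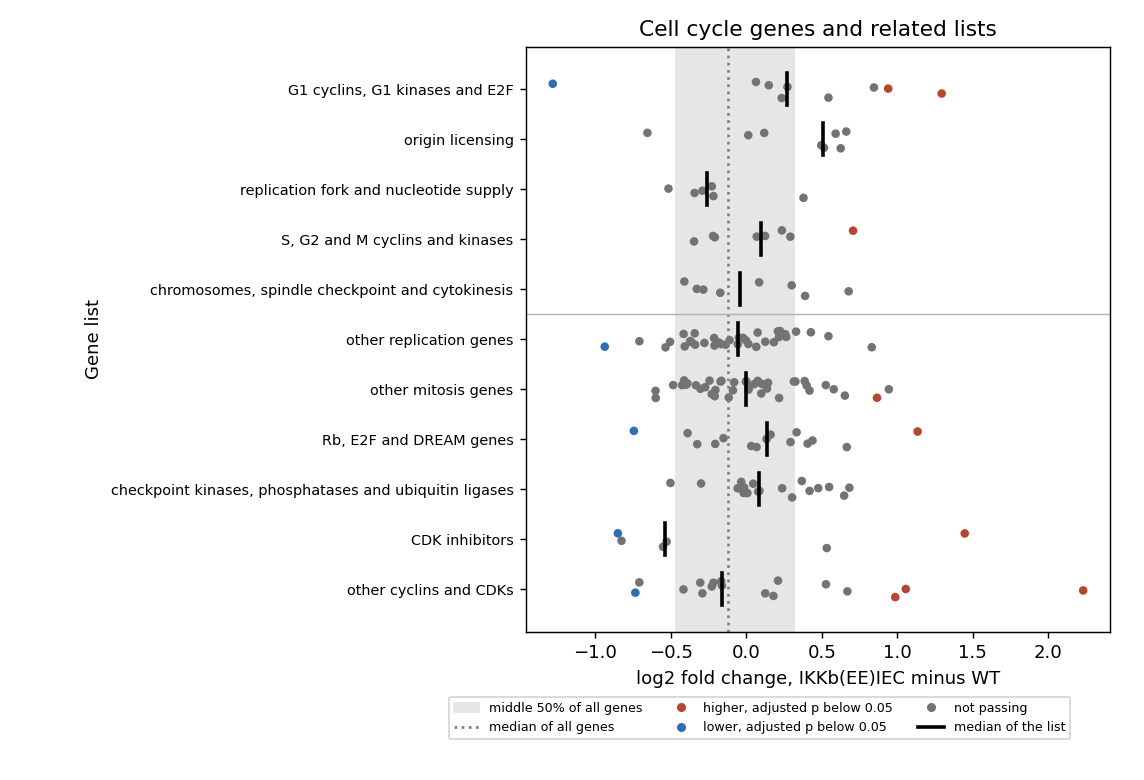
Log2 fold change, IKKb(EE)IEC minus WT (x axis), of every tested gene in the 5 role groups of the cell cycle set (above the line) and in the 6 further lists (below the line). Black bars are list medians, the grey band holds the middle 50% of all genes, and red and blue points rose or fell in the test; the median lies at 0.51 in origin licensing and at -0.54 in CDK inhibitors.

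The cell types behind the RNA were read from marker lists. Of 9 tested stem cell markers 0 passed in limma, at 3 with an unadjusted p below 0.05, and their summed levels were 76.6 and 79.8 in IKKb(EE)IEC and 84.6 and 117.4 in WT, in units of each array's 75th percentile. Paneth cell markers, of crypt cells that do not divide, fell in 7 of 9 tested genes (77.8%, beside 7.20% of all genes). Their summed levels were 3227 and 4444 in IKKb(EE)IEC and 21700 and 24630 in WT. Markers of T and NK cells, which can divide, summed to 158.1 and 140.6 in IKKb(EE)IEC and 198.5 and 214.1 in WT, and 0 of 12 passed in limma, at 4 with an unadjusted p below 0.05. Olfm4 made up most of the stem cell sum, and the other stem cell markers summed to 19.1 and 19.4 in IKKb(EE)IEC and 19.9 and 17.6 in WT. Absorptive enterocyte markers summed to 8152 and 7739 in IKKb(EE)IEC and 14060 and 14830 in WT. Of 15 tested, 1 rose (6.67%, beside 8.02% of all genes) and 3 fell (20.0%, beside 7.20%). Without Fabp2, the brightest, these sums were 5579 and 5028 against 7559 and 5512. Goblet cell markers summed to 4208 and 4512 in IKKb(EE)IEC and 6967 and 8573 in WT. Of these 9 markers, 2 fell (22.2%, beside 7.20% of all genes).

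Markers of macrophages and dendritic cells summed to 320.3 and 318.2 in IKKb(EE)IEC and 931.1 and 2440 in WT, a sum set mostly by Lyz2, which fell. The other markers of this list summed to 27.2 and 21.8 in IKKb(EE)IEC and 8.86 and 9.62 in WT, and of 10 tested 5 rose in IKKb(EE)IEC and 1, Lyz2, fell. Liver markers summed to 0.73 and 0.58 in IKKb(EE)IEC and 3.19 and 30.9 in WT. The part of these cell types in the cell cycle values was not tested.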

How the data were processed

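Total RNA of small-intestinal cells was labelled with Cy3 and hybridised to 1 array per sample, per the labels' protocols, with groups and replicate numbers taken from the sample titles. Per the file headers, the deposited intensities of spots were extracted with Agilent Feature Extraction 9.5.3.1, with background subtracted and no normalisation between arrays. A second deposited table holds the authors' normalised intensity of 40913 probes; the sources used here do not give its method. Arrays give no counts, so their number (2 per genotype) limits the precision.

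Processed signals were put on the log2 scale and the 75th percentile of the array was subtracted. Control spots and non-uniform spots were left out, spots of a probe were averaged, and probes well above background on at least 2 of 4 arrays were kept (16406 of 41174). The brightest probe stood for a gene, giving 12437 genes. Names followed RefSeq accessions for 24375 probes (GRCm38.p6), and probe coordinates are those of the files (mm8). The 2 genotypes were tested in R 4.3.3 with limma 3.58.1 (lmFit, eBayes, two-sided), with Benjamini-Hochberg adjustment and a threshold of 0.05. The script was tested on simulated data. Where a genotype was dim on both arrays, the fold is a bound. On each array of that genotype it uses the measured signal or the array's lowest signal well above background, whichever was higher.

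The 48 genes, the role groups, the lists and the tests were chosen with earlier results of these data known. Full values are given for genes past the threshold and, in each role group, for the 3 smallest p values; from each further list, for up to 4 passing genes or, with none, the smallest p. Other genes were named after their values were seen. A gene that this rule takes is not reported here. In 14 alternatives the background correction, scaling, filter, probe rule, variance trend, replicate block and arrays were varied.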

Additional observations from a re-analysis of the deposited data

How the results depend on the processing

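Several settings changed the calls. Against 997 genes higher and 896 lower in all, and 3 and 1 of the cell cycle set, normexp background correction gave 0 and 0 in all (192 at an unadjusted p below 0.05, lowest adjusted p 0.939) and 0 and 0 of the set, on arrays of which IKKb(EE)IEC replicate 2 had 4 and WT replicate 1 had 5 spots with a local background over 100. With those backgrounds replaced, an alternative chosen after seeing the data, 1387 genes were higher and 547 lower in all, and 9 of the set were higher and 1 lower (higher were Ccnd2, E2f2, Plk1, Cdt1, Mcm3, Mcm4, Mcm6, Mki67 and Rrm1). Without a filter, 501 genes were higher and 342 lower of 27727, and 0 and 0 of the set passed (12 at an unadjusted p below 0.05). An intensity trend gave 2 of the set lower, Gmnn beside Ccne2. For these shifts the cause was not tested.

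The replicate numbers are shared by both genotypes, and the labels do not say whether equal numbers mark a shared litter or day. Replicate differences correlated at 0.108 between genotypes, and with only 2 pairs this value cannot decide the question. With the replicate block, 587 genes were lower in all and 913 higher, and 2 of the set were higher and 1 lower, Plk1 being lost. Leaving out each array in turn gave 165 to 2633 genes higher and 82 to 3542 lower in all, 0 to 10 of the set higher, 0 to 13 lower, and a median of the set from -0.10 to 0.28. Ccne2 lost its call with the authors' value table (adjusted p = 0.0579), where its difference was -0.38 against -1.28 in the main test. Higher genes made up 52.7% of all calls, against 63.2% with a median shift, 71.7% with the replaced backgrounds and 40.0% with the stricter filter. No result changed sign among the 15 genes given in full, over the alternatives in which each was tested. Dim signals limited 9 genes to no test.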
